A study of Capra hircus with 6 samples.

Results

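The genes described here are 8 transcription factors that set up the hormone-producing cell lineages of the pituitary, namely HESX1, PITX1, LHX3, LHX4, POU1F1, GATA2, NR5A1 and TBX19, chosen by symbol. Of these 8, 7 were matched to a row of the 28907 rows of the table, 6 had enough counts to be tested, and LHX3 was not analysed here. The read counts came from the medio-basal hypothalamus of adult Alpine goats, a block of tissue that borders the pituitary stalk. The comparison is between 5 goats studied in January, when they cycled and were in the follicular phase before ovulation, and 8 goats in mid-May, when they were in anestrus and had no cycles. For either condition mRNA of the animals was combined at random, in equimolar amounts, into 2 pools, and each pool is 1 library, called F1 and F2 for the follicular phase and A1 and A2 for anestrus. The sources do not say how many goats entered a pool, so the spread between pools is not the spread between animals. Season and ovarian state differ together between the groups and cannot be told apart. The luteal pools of the series were not analysed here.

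Anterior pituitary cells arise from an outgrowth of the oral ectoderm, Rathke's pouch. HESX1, a repressor, and the homeodomain factors PITX1, LHX3 and LHX4 act early in that tissue, and later factors divide it into lineages. POU1F1 (Pit-1) is required for cells that make growth hormone, prolactin and, in the pars distalis, thyrotropin. GATA2 acts in thyrotrophs and gonadotrophs, NR5A1 (SF-1) in gonadotrophs, and TBX19 (T-pit) in the cells that express proopiomelanocortin. The pars tuberalis, the sheet of pituitary tissue that wraps the median eminence, holds thyrotrophs of its own that respond to melatonin and day length. In rats those thyrotrophs have been described as lacking POU1F1. Some of these factors are also made outside the pituitary, NR5A1 in neurons of the ventromedial hypothalamus and GATA2 in endothelium and in some brain neurons.

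Across the tested factors, levels in anestrus lay above those in the follicular phase on average, but for none of them did the difference pass the test. Levels are given as CPM, a gene's counts as a proportion of the library total of all tested genes, after scaling by the trimmed mean of M-values (TMM) of edgeR, on a scale where 1 count equals 0.0394 to 0.0701 CPM. The test was edgeR's quasi-likelihood test over 16756 genes, with p-values adjusted by the Benjamini-Hochberg method and a threshold of 0.05. Of the 6 tested factors, 0 passed, beside 34 genes or 0.203% of all genes tested (0.0119% higher and 0.191% lower in the follicular phase). DESeq2 and limma-voom also called 0 of them. At an unadjusted p under 0.05 there was 1, HESX1, beside 8.55% of all genes. The log2 fold change, follicular minus anestrus, was below 0 for 6 of 6, beside 50.1% of all genes tested, and its median was -0.69 beside -0.001. Groups were free of overlap in CPM for 3 of the 6 (HESX1, LHX4 and TBX19), with A1 and A2 higher each time, beside 38.3% of all genes in either direction and 20.7% in that direction. Library totals ran from 14553821 to 25292678 counts, and TMM factors from 0.981 to 1.008. Within the groups, pools correlated at r = 0.982 and 0.971 across genes in log2 CPM, and pools of different groups at 0.967 to 0.977.

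**Figure D1:**
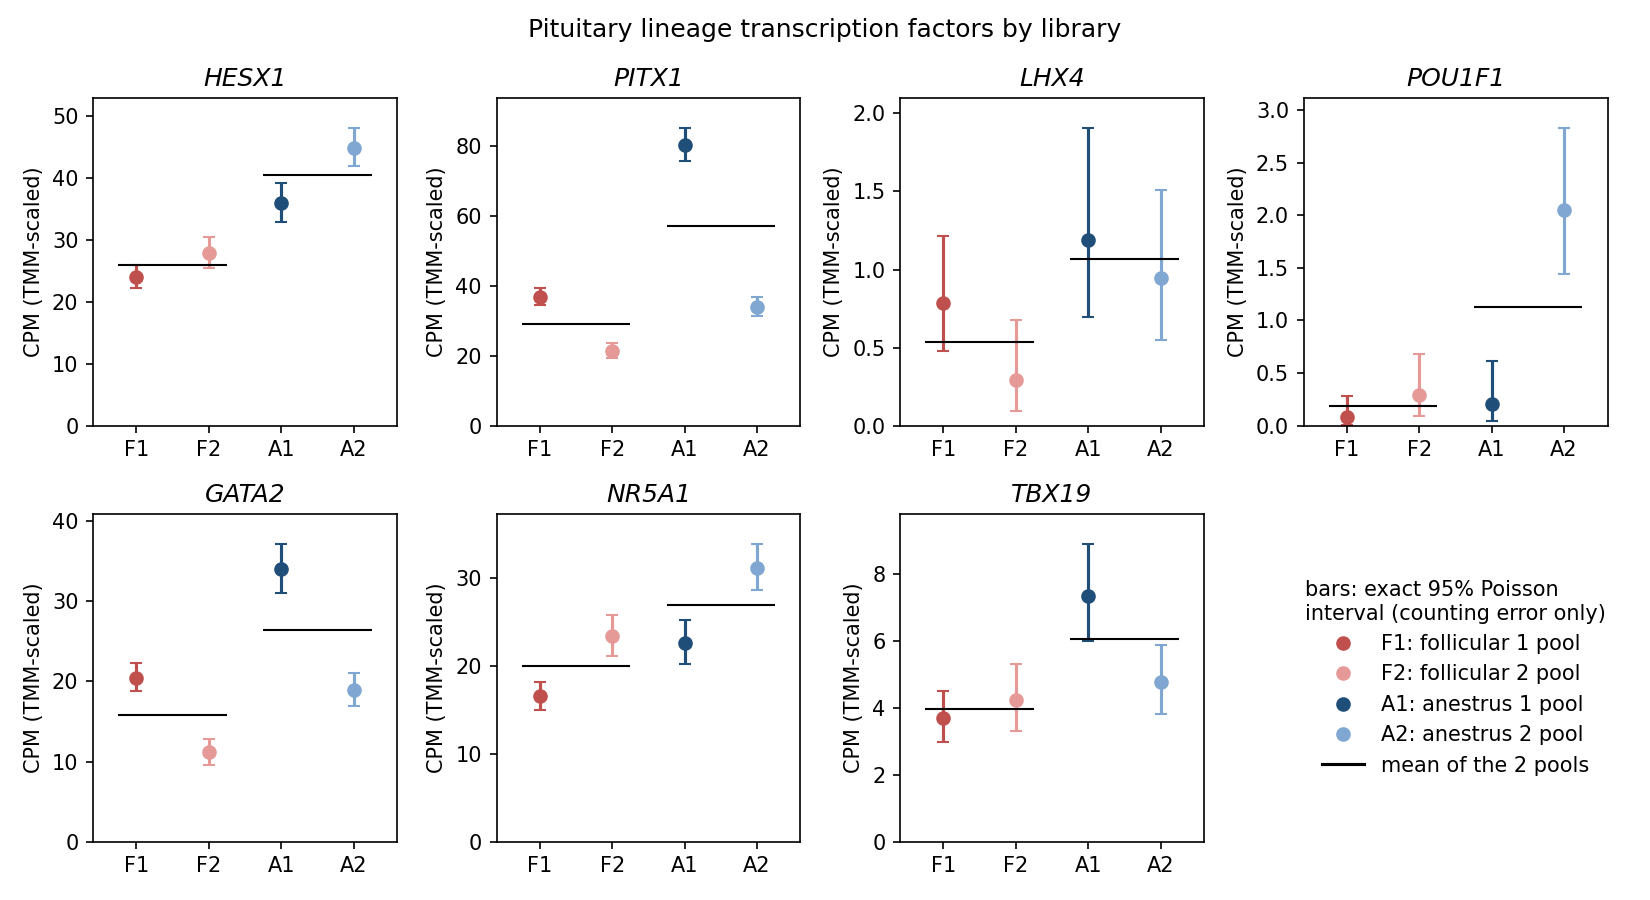
CPM of the 7 measured factors in each of the 4 libraries (F1 and F2, follicular pools; A1 and A2, anestrus pools), with exact 95% Poisson intervals as bars and the group means as lines. POU1F1 stands at 2.05 CPM in A2 and at or below 0.291 CPM in the other 3, while PITX1 and GATA2 are highest in A1.

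HESX1, the repressor of early pouch development, had the smallest p of the factors. It was at 24.0 and 27.9 CPM in F1 and F2 and at 36.0 and 44.9 CPM in A1 and A2. Both anestrus pools thus lay above both follicular pools, and the pools of a group lay close together. The anestrus level was 1.56 times the follicular level, a log2 fold change of -0.64 ± 0.22 (SE) with a 95% interval from -1.12 to -0.16 and, by edgeR, an adjusted p of 0.404. HESX1 ranked 561st by p among the 16756 genes tested. Without A1 its adjusted p was 0.0321, at a log2 fold change of -0.79, and without A2 it was 0.481 at -0.43. A fit with 1 pool in a group has no spread in that group and assumes that the lone pool varies like the others. The value of HESX1 in a bulk sample cannot tell more cells from more RNA per cell, and the same holds for every factor below.

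PITX1, which is made throughout the anterior pituitary and activates several hormone genes including POMC and CGA, had the largest fitted fold of the tested factors (1.96, beside 1.89 for LHX4) and the largest spread within groups on the log2 scale. Its levels were 36.9 and 21.4 CPM in F1 and F2, and 80.5 and 34.1 CPM in A1 and A2. A1 stood far above the rest, and A2 lay just below F1, so the groups overlapped. Means were 29.2 ± 10.98 CPM for F1 and F2 and 57.3 ± 32.8 CPM for A1 and A2 (SD, n = 2). The log2 fold change was -0.97 ± 0.44, with a 95% interval from -2.01 to 0.07 and an adjusted p of 0.624 (edgeR). That interval covers anestrus levels from 0.951 to 4.02 times the follicular level. PITX1 varied more within groups than 94.7% of tested genes, with 1148 counts in A1 and 614 in A2. Without A1 the log2 fold change was -0.22 (adjusted p = 0.759), and without A2 it was -1.42 (adjusted p = 1.8e-07, edgeR). With no count filter PITX1 also passed (adjusted p = 0.00517, edgeR).

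LHX4, a LIM-homeodomain factor of the pouch, was close to the detection limit, with 20 and 5 counts in F1 and F2 and 17 in each of A1 and A2. These counts correspond to 0.787 and 0.291 CPM in F1 and F2, and 1.19 and 0.944 CPM in A1 and A2. The anestrus pools were higher, but their Poisson intervals (0.694 to 1.91 and 0.550 to 1.51 CPM) included the level of F1. The log2 fold change was -0.92 ± 0.65, with an adjusted p of 0.776 (edgeR) and a 95% interval from -2.35 to 0.51. Without F1 it was -1.83. At this depth only a large change of LHX4 would be detectable.

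POU1F1 was below the count filter and was not tested. It had 2 and 5 counts in F1 and F2, 3 in A1 and 37 in A2. A single library therefore held most of its counts. The level in A2 was 2.05 CPM (95% Poisson interval 1.45 to 2.83), 9.77 times that in A1 (3.09 to 49.5). A1 itself was at 1.28 times the level of F1 and F2 with their counts and library sizes combined (0.214 to 5.61). With that pool alone no difference between the groups was detectable at this depth. Both anestrus pools together gave 7.55 times the follicular level (3.34 to 20.0). These intervals cover counting error only and not the spread between pools. With no count filter the log2 fold change of POU1F1 was -2.71 ± 0.87, with an adjusted p of 0.0929 (edgeR).

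Of the products that POU1F1 is known to switch on, growth hormone was highest in the same library as POU1F1, A2, and thyrotropin was not. POU1F1, GH1 and TSHB were each lowest in F1, where POU1F1 rested on 2 counts beside 5 in F2 and 3 in A1. TSHB, the beta subunit of thyrotropin, was at 4.802 and 6.80 CPM in F1 and F2, and at 1200 and 811 CPM in A1 and A2. A1, the library with the most TSHB, thus had POU1F1 at 0.210 CPM, inside the range of F1 and F2 (0.0787 and 0.291 CPM). GH1, growth hormone, was at 1.81, 13.1, 11.01 and 33.3 CPM in the same order and, like POU1F1, was lowest in F1 and highest in A2. GHRHR, the receptor for growth hormone-releasing hormone and a target of POU1F1, was also highest in A2 (0.944 CPM). It had 6, 6, 5 and 17 counts in F1, F2, A1 and A2, too few to resolve which library was lowest. TRHR, the receptor for thyrotropin-releasing hormone, went the other way, at 0.315, 0.291, 0.140 and 0.111 CPM on 8, 5, 2 and 2 counts. GH1 did not pass the test (log2 fold change -1.60 ± 1.07, adjusted p = 0.791, edgeR), and GHRHR and TRHR were below the count filter. TSHB passed (log2 fold change -7.45 ± 0.30, adjusted p = 6.66e-06, edgeR).

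GATA2, the zinc finger partner of POU1F1 on thyrotropin genes, ranked the libraries in the same order as PITX1. It was at 20.5 and 11.2 CPM in F1 and F2, and at 33.9 and 18.9 CPM in A1 and A2. Again A1 was highest, and A2 fell between F1 and F2. The log2 fold change was -0.73 ± 0.37, with a 95% interval from -1.56 to 0.10 and an adjusted p of 0.655 (edgeR). Without A2 it was -1.05 with an adjusted p of 0.0128, and without A1 it was -0.25 with 0.785 (edgeR). Endothelium is a known source of GATA2 outside the pituitary, and 13 other endothelial markers were set beside it. Their summed level was 292 and 291 CPM in F1 and F2 and 261 and 324 CPM in A1 and A2. The share of GATA2 reads that came from endothelium or neurons was not tested. Of these 13, 0 passed in edgeR (1 at an unadjusted p under 0.05), with a median log2 fold change of 0.08, and the smallest p-values belonged to EMCN (-0.57 ± 0.21) and TEK (-0.34 ± 0.22).

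Markers of brain neurons that use GATA factors gave 0 called of 7 tested in edgeR (1 at an unadjusted p under 0.05), with a median of 0.22 beside -0.001 for all genes. Among them GAD2, which makes GABA, had the smallest p (0.47 ± 0.16), followed by the transcription factor SOX14 (-0.63 ± 0.29). GATA3, the relative of GATA2 in those neurons, was at 2.44 and 1.86 CPM in F1 and F2 and at 2.80 and 3.61 CPM in A1 and A2.

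NR5A1, the nuclear receptor of gonadotrophs, showed the smallest fold. It was at 16.6 and 23.4 CPM in F1 and F2, and at 22.6 and 31.2 CPM in A1 and A2. The groups overlapped, since A1 lay below F2. The log2 fold change was -0.43 ± 0.27, with an interval from -1.02 to 0.15 and an adjusted p of 0.733 (edgeR). FSHB, the follicle-stimulating hormone subunit, was likewise lowest in F1 and highest in A2, at 17.3, 52.2, 75.5 and 117 CPM in the order F1, F2, A1 and A2. LHB, the luteinizing hormone subunit, had the reverse extremes, at 118, 27.9, 31.9 and 20.8 CPM in that order. GNRHR, the receptor by which gonadotrophs sense GnRH, followed neither, at 22.7, 5.64, 1.54 and 7.94 CPM.

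Since NR5A1 is also made in the ventromedial hypothalamus, 14 genes typical of that nucleus were set beside it. Of these, 0 passed in edgeR (2 at an unadjusted p under 0.05), the median log2 fold change was -0.002, and their summed level was 494 and 565 CPM in F1 and F2 and 411 and 419 CPM in A1 and A2. For 7 of the 14 the log2 fold change was below 0. ADCYAP1, the PACAP precursor, and SLC17A6, the vesicular glutamate transporter, had the smallest p of that list and were higher in F1 and F2, at 0.73 ± 0.17 and 0.57 ± 0.18 in log2 fold change (adjusted p = 0.216 and 0.363, edgeR). SOX14, a transcription factor also on this list, went the other way, at 7.44 and 7.90 CPM in F1 and F2 and 12.8 and 10.9 CPM in A1 and A2 (-0.63 ± 0.29, adjusted p = 0.602, edgeR). The share of NR5A1 reads that came from neurons was not tested.

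TBX19, the T-box factor of corticotrophs and melanotrophs, was at 3.70 and 4.24 CPM in F1 and F2, and at 7.36 and 4.77 CPM in A1 and A2. Both anestrus pools were higher, but the Poisson intervals of A2 (3.82 to 5.90 CPM) and F2 (3.325 to 5.33 CPM) overlapped. The log2 fold change was -0.61 ± 0.37, with an interval from -1.42 to 0.20 and an adjusted p of 0.731 (edgeR). POMC, the precursor of ACTH that TBX19 activates together with PITX1, was at 170 and 37.8 CPM in F1 and F2 and at 260 and 92.0 CPM in A1 and A2. POMC is also made by arcuate neurons, and its libraries ranked in the same order as those of PITX1 (log2 fold change -0.76 ± 1.04, adjusted p = 0.923, edgeR).

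**Figure D2:**
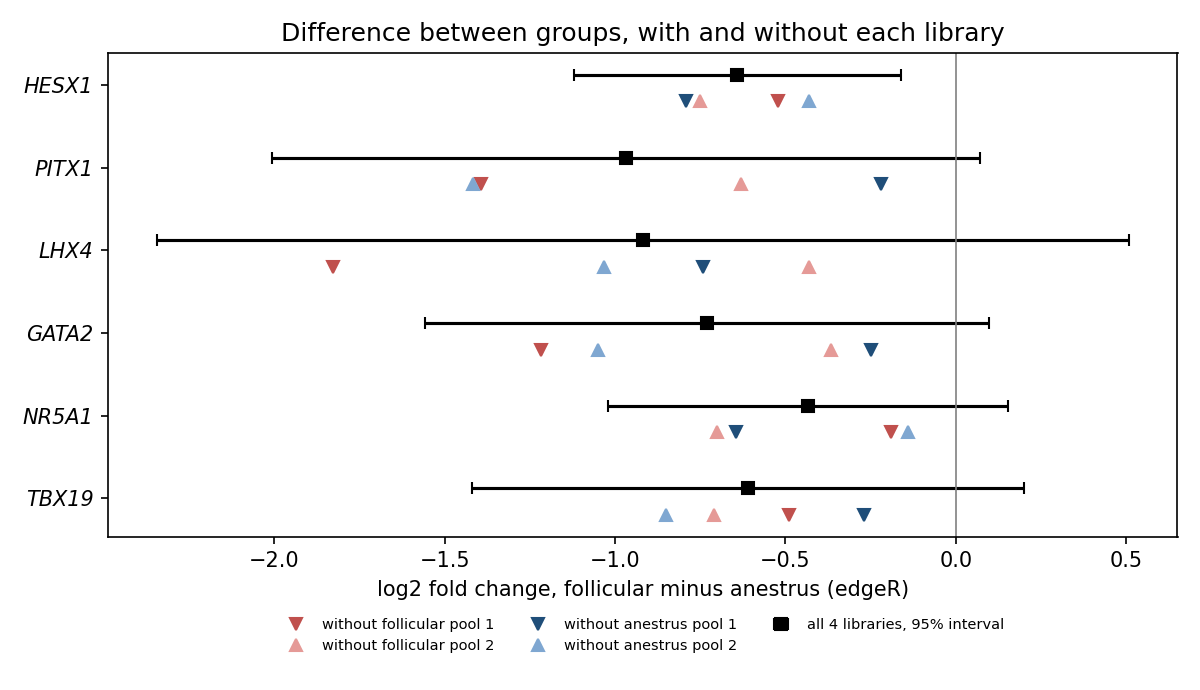
Log2 fold change (follicular minus anestrus) of the 6 tested factors from edgeR, with all 4 libraries and its 95% interval (squares and bars) and with 1 library left out (triangles). All points lie below 0, and the intervals of 5 of the 6 include 0, HESX1 being the exception at -1.12 to -0.16 before adjustment.

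By the numbers of the library names, pools of the same group differed in the same direction in both groups for 6 of the 7 measured factors. The ratio of pool 1 to pool 2 was 1.73 in the follicular phase and 2.36 in anestrus for PITX1, and 1.83 and 1.80 for GATA2. For HESX1 it was 0.861 and 0.802, and for NR5A1 0.708 and 0.726. LHX4 was higher in pool 1 of both groups (2.71 and 1.26), on few counts, and TBX19 differed in direction between the groups (0.872 and 1.54). Across all tested genes, pool 1 exceeded pool 2 in both groups for 33.2%, and pool 2 exceeded pool 1 in both for 29.1%. A ratio of at least 1.5 in both groups, as for PITX1 and GATA2, was seen for 4.64% of genes tested. POMC shared the direction of PITX1 and GATA2, at 4.50 and 2.82, as did LHB at 4.23 and 1.54. FSHB (0.332 and 0.644), GH1 (0.138 and 0.331) and, on few counts, POU1F1 (0.271 and 0.102) went the way of HESX1 and NR5A1. The titles number the anestrus pools the other way round, and by those numbers the same 6 factors differed in opposite directions. The shares over all genes given here also hold for the library-name numbers only. The pool numbers carry no labelled meaning, and a cause of these differences was not tested. They were described after the values had been seen.

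**Figure D3:**
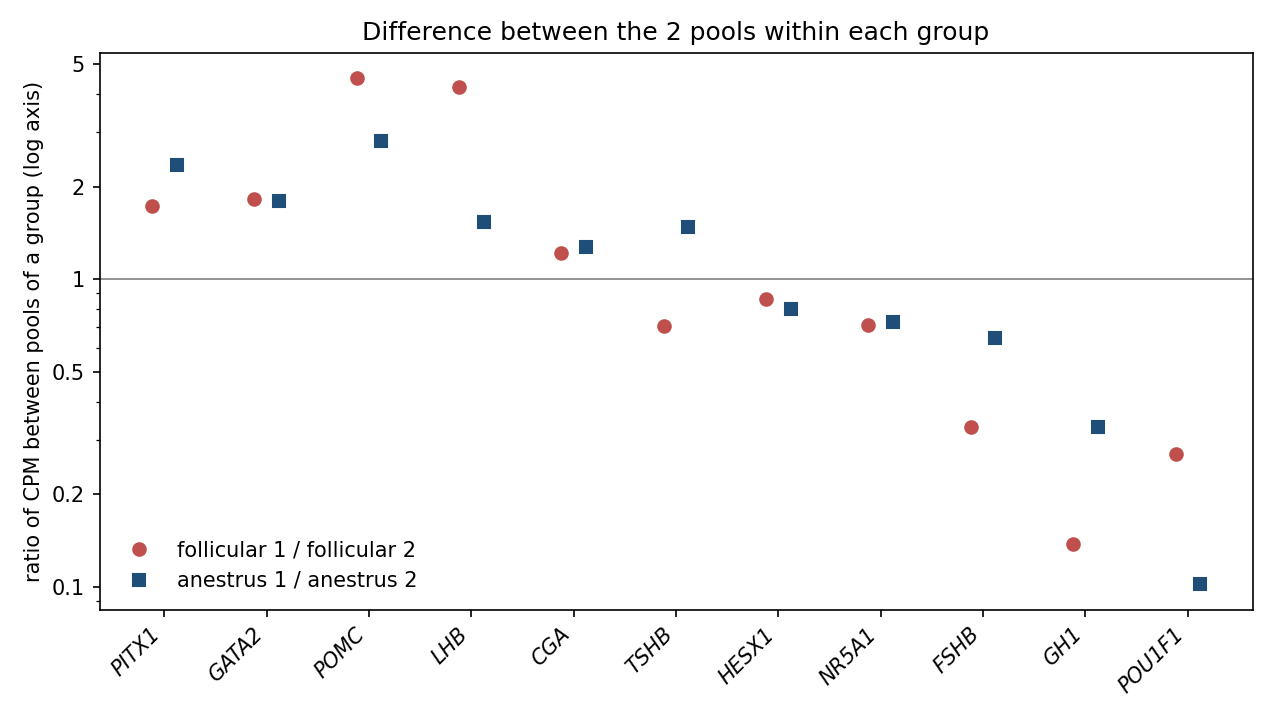
Ratio of CPM between pool 1 and pool 2, numbered by library name, within each group (log axis) for 5 of the factors and 6 pituitary hormone genes. PITX1, GATA2, POMC, LHB and CGA lie above 1 in both groups, HESX1, NR5A1, FSHB, GH1 and POU1F1 lie below 1 in both, and TSHB differs in direction, at 0.706 and 1.48.

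Counts set against PITX1 in the same library do not depend on how libraries are scaled. Per 100 counts of PITX1 there were 55.4 and 52.2 counts of GATA2 in F1 and F2, and 42.2 and 55.4 in A1 and A2. GATA2 thus kept nearly the same proportion to PITX1 in 3 libraries and was lower in the library with the most PITX1. HESX1 gave 65.0 and 130 in F1 and F2 and 44.7 and 132 in A1 and A2, and NR5A1 gave 44.9 and 110, and 28.1 and 91.5. For these factors the proportion differed more between pools of a group than between groups. TBX19 gave 10.02 and 19.8, and 9.15 and 14.01, again overlapping. CGA, the alpha subunit shared by thyrotropin and the gonadotropins, gave 14170 and 20080 counts per 100 of PITX1 in F1 and F2 and 16330 and 30240 in A1 and A2, which overlap. TSHB gave 13.0 and 31.8 against 1491 and 2378, with no overlap and an 86.4-fold difference between the means. So the excess of TSHB in anestrus held per count of PITX1. The values of the other factors and of CGA per PITX1 overlapped between the groups. PITX1 varied more within groups than 94.7% of tested genes, and that spread enters every ratio to it. HESX1, LHX4, TBX19 and CGA did not overlap in CPM, so their overlap per PITX1 cannot show that their differences follow PITX1. With 2 pools a group no exact permutation test of such ratios can pass the threshold, and none was made.

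Genes that work beside the factors were taken from lists of early patterning factors, later differentiation factors, protein family relatives and cofactors. Of 20 tested early pituitary patterning factors, 15 had a log2 fold change below 0, beside 50.1% of all genes, and the median was -0.318. In edgeR 1 of them passed, lower in the follicular phase, beside 0.191% of all genes. Of 21 tested factors of later pituitary differentiation 0 passed in edgeR (6 at an unadjusted p under 0.05), and the median was -0.07. EYA3, a transcriptional coactivator and phosphatase, had the smallest p among them (-2.29 ± 0.56, adjusted p = 0.385, edgeR). Its levels were 306 and 190 CPM in F1 and F2 and 658 and 1775 CPM in A1 and A2. EYA3 passed in 3 of 14 alternatives, and without A2 its log2 fold change was -1.37 (adjusted p = 6.68e-11, edgeR). Next came NR4A1, an immediate early nuclear receptor that acts on POMC (0.96 ± 0.32).

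Among the 23 tested relatives of the factors by protein family, 0 passed in edgeR (5 at an unadjusted p under 0.05) and the median was -0.03. ISL1, a LIM-homeodomain relative of LHX3 and LHX4 in thyrotrophs, gonadotrophs and arcuate neurons, was at 70.1 and 62.2 CPM in F1 and F2 and at 130 and 106 CPM in A1 and A2 (-0.83 ± 0.18, adjusted p = 0.155, edgeR), and passed in 6 of 14 alternatives. Of 18 tested cofactors, which bind, assist or repress the factors, 0 passed in edgeR (1 at an unadjusted p under 0.05) and the median was -0.04. LDB2, a LIM-domain binding protein, had the smallest p (-0.66 ± 0.19, adjusted p = 0.299, edgeR), followed by the nuclear receptor coactivator NCOA1 (-0.27 ± 0.16). NR0B1 (DAX-1), the repressor of NR5A1, was at 2.91 and 1.92 CPM in F1 and F2 and at 2.66 and 2.39 CPM in A1 and A2.

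**Figure D4:**
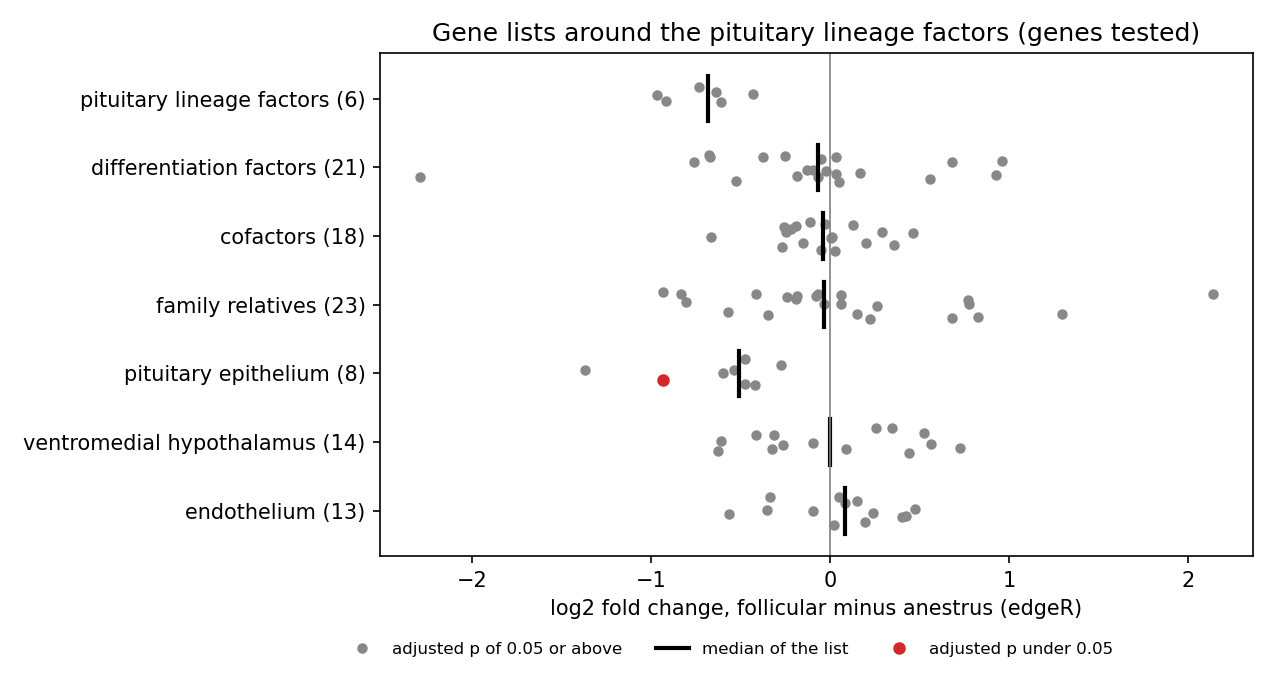
Log2 fold change (follicular minus anestrus) of the tested genes of 7 lists, 1 point a gene, with the number tested in brackets and the median as a line. The pituitary lineage factors (median -0.69) and the pituitary epithelium (-0.51) lie to the left of 0, while cofactors, family relatives, ventromedial hypothalamus and endothelium centre within 0.1 of it, and the single red point is EPCAM. Of lists not drawn, pars tuberalis (-0.71), hormones and receptors (-0.547), meninges (-0.35), pituicytes (-0.33), early patterning factors (-0.318) and tanycytes (-0.173) also had medians below 0. Medians were above 0 for brain GATA neurons (0.216), microglia (0.246), neurons (0.353), choroid plexus (0.444), astrocytes (0.547) and oligodendrocytes (0.766).

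The summed level of 17 matched pituitary hormone and receptor genes was 5993 and 4790 CPM in F1 and F2, and 15450 and 12130 CPM in A1 and A2. Of their 14 tested members 3 were lower in the follicular phase (TSHB, CGA and PCSK1), 0 were higher and 11 did not pass. CGA was at 5232 and 4295 CPM in F1 and F2 and at 13140 and 10310 CPM in A1 and A2, a 2.46-fold difference. It made up most of the summed level of this list in every library. AVPR1B, the corticotroph vasopressin receptor, was at 0 in every library. PCSK1, a convertase that cuts prohormones, had the same 2.46-fold difference. The calls of CGA and PCSK1 were lost without F1 (adjusted p = 0.417 and 0.623, edgeR), at log2 fold changes of -1.43 and -1.41 beside -1.30 for both. For 13 pars tuberalis genes the sums were 7522 and 5822 against 16480 and 13960 CPM, with 5 lower in the follicular phase, 0 higher and 8 that did not pass. TSHB and CGA stand in both lists. The sums of the other 11 pars tuberalis genes were 2285 and 1520 CPM in F1 and F2 and 2135 and 2839 CPM in A1 and A2, which overlap. CHGA made up most of those sums in F1 and F2 and was higher there, without passing the test. It was at 1570 and 932 CPM in F1 and F2 and at 807.5 and 460 CPM in A1 and A2. Of the 13 genes, 10 had a log2 fold change below 0, beside 50.1% of all genes tested. For 8 of the 13 the groups did not overlap and anestrus was higher, beside 20.7%. FAM150B (ALKAL2), a ligand of ALK, was among the 5 that passed, as were TSHB and CGA, and stood at 2.40 ± 0.06 against 70.6 ± 7.08 CPM.

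Epithelial genes, which the pituitary keeps from the oral ectoderm, summed to 378 and 376 CPM in F1 and F2 and to 677 and 625 CPM in A1 and A2. All 8 tested had a log2 fold change below 0, beside 50.1% of all genes tested, with a median of -0.51. For 5 of them the groups did not overlap and anestrus was higher, beside 20.7%. The 1 that passed, beside 0.191% of all genes in that direction, was EPCAM, an epithelial adhesion molecule (-0.93 ± 0.16, adjusted p = 0.0493, edgeR). The call of EPCAM was lost without either follicular pool (adjusted p = 1 without pool 1 and 0.25 without pool 2), at log2 fold changes of -0.93 and -0.92, and EPCAM also missed the threshold without robust estimation (0.0552) or with a minimum mean of 1 CPM (0.0523). The part of pituitary content in the levels of the transcription factors was not tested. EPCAM made up most of these sums, and its ratio of pool 1 to pool 2 was 1.02 and 1.1. That ratio was 1.74 and 1.62 for CLDN4, a tight junction protein, and 1.47 and 1.45 for the keratin KRT19. The claudin CLDN3, on few counts, gave 1.42 and 3.79, and the keratins KRT8 and KRT18 gave 1.02 and 1.2, and 0.663 and 1.04. The cadherin CDH1 (0.875 and 0.699) and the epithelial factor GRHL1 (0.881 and 0.807) lay below 1 in both groups. The list members besides EPCAM were named after their values were seen.

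Markers of other cell types differed in direction. Summed neuron markers were 6102 and 6730 CPM in F1 and F2 and 5539 and 4982 CPM in A1 and A2, with 0 of 12 called in edgeR (4 at an unadjusted p under 0.05). Astrocyte markers summed to 11570 and 12520 against 7558 and 7544 CPM (1 of 10 higher in the follicular phase, GFAP, a call lost without either follicular pool at adjusted p = 0.698 and 0.0525, edgeR, and log2 fold changes of 1.03 and 1.00 beside 1.01), and oligodendrocyte markers to 3742 and 5019 against 3154 and 2038 CPM (0 of 14, and 12 at an unadjusted p under 0.05). Microglia gave 0 of 12 in edgeR (1 at an unadjusted p under 0.05), at 548 and 567 against 450 and 457 CPM. Tanycyte markers gave 1527 and 1478 against 1866 and 1736 CPM (1 of 11 lower in the follicular phase). Folliculostellate and pituicyte genes, of the non-endocrine pituitary cells and the posterior lobe, gave 2413 and 2729 against 2066 and 2111 CPM (1 of 10 lower). S100B, which is also on the astrocyte list, made up most of each of these sums, at 1899 and 2246 against 1426 and 1394 CPM. The direction of the sums was thus that of S100B. By log2 fold change 6 of the 10 pituicyte list genes lay below 0, with a median of -0.33. Genes of meninges and fibroblasts gave 1033 and 1121 against 1822 and 1569 CPM (1 of 10 lower), and choroid plexus genes 378 and 130 against 164 and 149 CPM (0 of 8, and 1 at an unadjusted p under 0.05). Each single call among tanycyte, pituicyte and meningeal genes (DIO2, ALDH1A1 and SIX2) was lost without F1, at adjusted p of 0.753, 0.897 and 0.234 (edgeR). Their log2 fold changes were then -1.25, -1.07 and -2.28, beside -1.20, -1.001 and -2.00 with all libraries. The calls of DIO2 and ALDH1A1 were also lost without F2 (0.0638 and 0.25), and that of ALDH1A1 without robust estimation (0.0506) or with a minimum mean of 1 CPM (0.0523).

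Genes with profiles most like those of the factors were sought by the Euclidean distance between log2 CPM profiles, each centred on its mean over the 4 libraries, among 13515 named genes with a mean of at least 1 CPM. For GATA2 the nearest were SERINC2 (distance 0.0306), CHRND (0.0728) and CARD10 (0.138), and 4 genes lay within 0.2. For PITX1 they were TMEM249 (0.222), SLC16A11 (0.262) and NUDT16 (0.294), and 0 lay within 0.2. HESX1 was nearest to RORB (0.0728), ST3GAL6 (0.0821) and FAP (0.0866), with 70 genes within 0.2. NR5A1 was nearest to MORC4 (0.0971), TAS2R3 (0.106) and MYBPC1 (0.109), with 42 within 0.2. TBX19 was nearest to PDIA5 (0.0623), SEC61G (0.0757) and RPL36A (0.076), with 72 within 0.2. With 4 libraries such likeness is a description, and no factor was among the 3 nearest of another.

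By the RefSeq genes of the ARS1.2 goat assembly, 0 genes overlapped any of the 7 measured factors. Of the neighbouring genes that were tested, 0 passed in edgeR. HESX1 lies between APPL1 (0.07) and IL17RD (-0.35), GATA2 between RPN1 (-0.13) and EEFSEC (0.15), and LHX4 between QSOX1 (-0.21) and ACBD6 (-0.27), where values in brackets are log2 fold changes that did not pass. PITX1 lies between LOC108636365 (-0.56) and CATSPER3 (0.02), and NR6A1, beside NR5A1, was at -0.32.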

How the data were processed

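The authors deposited raw read counts per gene (whole numbers, no normalization) for 4 libraries. TriReagent and a stranded TruSeq mRNA kit were used, per the labels' protocols. The submitters' processing notes list featureCounts 2.0.0, TopHat2 2.1.1, SAMtools 1.9, bcl2fastq 2.20, Bowtie2 2.3.5.1 and FastQC. Genome build, strand setting and multi-mapped read handling were not given in the sources used here, so no coordinates or sequences are printed, reads shared with near-identical copies cannot be judged, and levels are not compared between genes, whose transcript lengths were not used. Of the identifiers, 28873 were in the RefSeq ARS1.2 table.

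Genes were kept by filterByExpr (minimum count 10, minimum total 15), scaled by TMM, and tested in R 4.3.3 by edgeR 4.0.16 (glmQLFit, robust, 1 mean per group, 2 residual degrees of freedom), checked on simulated data. Standard errors are the log2 fold change over the root of the F statistic, and Poisson intervals have a confidence level of 95%. Log2 CPM used a prior count of 2. DESeq2 1.42.0, limma-voom (limma 3.58.1), other scalings and filters, replicate blocks and leaving out each pool were alternatives. In 18 further lists and the factors, 253 of 261 symbols were matched. The members and lists were chosen with earlier results of these data known. Text names called list genes (up to 4 a list) or the 2 with the smallest p, and gives brain cell lists as counts. GATA3, NR0B1, GNRHR, GHRHR, TRHR, CHGA, S100B and AVPR1B were named after their values were seen. GH1, POMC, LHB, FSHB, GRHL1, OTX1 and RAX also fall outside the naming rule, so comparisons with them were not planned. TSHB and CGA were to be named whatever their result. Pools carry the numbers of the library names, since the titles number the anestrus pools the other way round. Separate animals underlie the groups, but p-values measure only the spread between pools. Promoters were not described, since no goat sequence was used here. Some list genes are not reported here.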

Additional observations from a re-analysis of the deposited data

How the results depend on the processing

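For the 6 tested factors, 83 single results were recomputed under other settings: 0 changed direction, 79 kept the side of the threshold and 4 moved past it. These were PITX1 with no count filter (log2 fold change -0.958) and without A2 (-1.417), HESX1 without A1 (-0.791) and GATA2 without A2 (-1.051). Accordingly the number of factors called was 1 with no count filter, and between 0 and 2 when 1 pool was left out. Leaving out a pool gave log2 fold changes from -1.417 to -0.22 for PITX1, -0.791 to -0.43 for HESX1, -1.217 to -0.248 for GATA2, -0.701 to -0.141 for NR5A1, -0.851 to -0.269 for TBX19 and -1.828 to -0.431 for LHX4. The log2 ratio of mean CPM of POU1F1 was -2.617 with all pools and ran from -3.846 to -0.188, the last without A2. The number of genes called was 34, and 143 with DESeq2, 300 with no count filter, and 4 to 818 when a pool was left out (4 without F1, 818 without A1 and 555 without A2); the causes were not tested. LHX4 had no adjusted p in DESeq2, so that result had no side of the threshold to keep, though it was counted among the 79. Alternatives for the list genes were chosen after the data had been seen. The pools share only a number, so a replicate block is a setting and not a pairing: with the numbers of the library names it gave 90 calls, with those of the titles 130, and 0 factors with either. Deviations of same-numbered pools from their group means correlated at 0.26 across genes. Poisson error of LHX4 and POU1F1 limits both at this depth.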

Other observations

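Among family relatives of POU1F1, 0 of the 3 tested brain POU factors of class III passed in edgeR (3 at an unadjusted p under 0.05), and these genes were named after their values were seen. POU3F2 (Brn-2), a factor of hypothalamic neuron development, was at 15.8 and 16.5 CPM in F1 and F2 and at 5.82 and 7.33 CPM in A1 and A2, with a difference of 1.29 ± 0.29 in log2 and an adjusted p of 0.19 (edgeR). POU3F3 was at 18.7 and 32.2 CPM against 17.2 and 11.5 CPM (0.83 ± 0.32, adjusted p = 0.496, edgeR). POU3F4 was at 0.827 and 1.51 CPM against 0.491 and 0.0555 CPM. POU3F1, below the count filter, was at 0.157 and 0.0581 against 0.210 and 0 CPM. The epithelial factor GRHL1 was at 8.70 and 9.88 CPM in F1 and F2 and 21.5 and 26.6 CPM in A1 and A2 (-1.37 ± 0.26, adjusted p = 0.0977, edgeR), and the homeobox gene OTX1 at 1.496 and 1.74 against 3.15 and 3.66 CPM (-1.08 ± 0.43, adjusted p = 0.5, edgeR). RAX, a homeobox factor of the infundibulum and tanycytes, was at 1.102 and 0.232 CPM in F1 and F2 and at 2.87 and 0.555 CPM in A1 and A2, so its pools were ordered as those of PITX1 and GATA2 within each group.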
